A study of Mus musculus with 15 samples.

Results

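The comparison described here sets colon tumours of mice carrying both an Apc and an Olfm4 mutation against the adjacent colon of the same genotype. It uses 6 of the 15 arrays of the series. The 3 tumour arrays were chosen by the letter T in their titles, and the 3 adjacent arrays by the letter N. All 18193 genes with a single gene symbol entered, each through its probe set with the highest mean over the 15 arrays.
The tumours came from colon of APC+/-/Olfm4-/- mice, and the adjacent samples were labelled as normal colon tissue next to a tumour in mice of that same genotype. The other 9 arrays, 3 each from APC mutant, Olfm4 mutant and wild-type colon, served to estimate the spread between arrays. All mice were 3-month-old males on a C57BL/6 and 129 hybrid background, compared as littermates. Both tissues carry the same germline alleles, so no difference between them can be read as an effect of the Olfm4 deletion, and the Apc allele is named in the labels only as +/-. The titles of the 6 arrays carry 2 animal numbers: tumour 1 and adjacent 1 share one number, and tumours 2 and 3 and adjacents 2 and 3 share the other, while the design text speaks of 3 mice per category. The 3 arrays of a tissue are therefore treated as separate samples whose spread may be partly technical. The p-values rest on the spread within all 5 groups of the series, which includes the 9 arrays of other mice. They are no measure of the spread between double mutant animals. Values are log2 RMA intensities of whole tissue pieces, so that a difference of 1 is a 2-fold difference, and values in each group are given in the order array 1, 2 and 3.
Apc is a scaffold of the complex that destroys beta-catenin, and intestinal tumours of Apc mutant mice lack its function and run the Wnt transcription programme of crypt stem cells. Olfm4 encodes a glycoprotein that crypt stem cells of the intestine secrete and that neutrophils store in granules. A colon tumour also differs from flat colon in what surrounds its epithelium: the muscle layers, the enteric nervous system and the lymphoid follicles of the wall need not be in the same piece of tissue, and immune cells move in. In bulk samples of this kind, fewer cells of a type and less RNA per cell cannot be told apart. The Olfm4 probe set read 2.97 to 3.32 on all 6 arrays, at the floor of the scale, and since both tissues carry the deletion it does not check which array is a tumour. The Apc probe set used here had 11.30, 11.13 and 11.13 in the tumour arrays, against 10.99, 10.84 and 10.65 in the adjacent arrays (log2 difference 0.37 ± 0.12 SE, limma adjusted p = 0.041), and in a fit over all probe sets none of the 4 Apc probe sets was called. Apc lost its call without tumour 1, tumour 2, tumour 3, adjacent 2 or adjacent 3 (limma adjusted p up to 0.16). Apc had no call with the spike-in difference as a covariate. Apc had no call with the arrays of an animal averaged.
A gene was called where limma's adjusted p over all 18193 genes was under 0.05. By that rule 5112 genes (28.1%) differed, 2607 higher (14.3%) and 2505 lower (13.8%) in tumour than in adjacent tissue. The median log2 difference over all genes was 0.0019. At least 2-fold differences were called for 1198 genes higher (6.58%) and 1333 genes lower (7.33%). With such a background, a list of genes in which about 14 of 100 members are called in each direction does not stand out. Each count below is to be read against those shares. Called or not, 23.6% of all genes had every tumour array above every adjacent array, and 22.3% had every one below. A lack of overlap was therefore common by itself.
Within each group some arrays stood apart. Of the 1198 genes called at least 2-fold higher, tumour 3 lay more than 1 log2 unit above the other tumours' mean for 91 (7.6%). Tumour 1 lay as far below the other tumours for 91 genes (7.6%). Adjacent 3 lay as far above the other adjacent arrays for 185 genes (15.4%), against 7 genes for each of adjacent 1 and adjacent 2. Over the 1333 genes called at least 2-fold lower, tumour 1 lay more than 1 unit above the other tumours for 179 genes (13.4%), against 5 for tumour 2 and 9 for tumour 3. Adjacent 3 thus held intermediate levels of many tumour transcripts, and tumour 1 of many transcripts of the adjacent wall. Without adjacent 3, 4241 of the 5112 calls remained, and without tumour 1, 4274 remained, all with the same sign in both cases. Called genes named below whose difference moved by more than 1.5-fold without either array are given with the value without it.

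**Figure D1:**
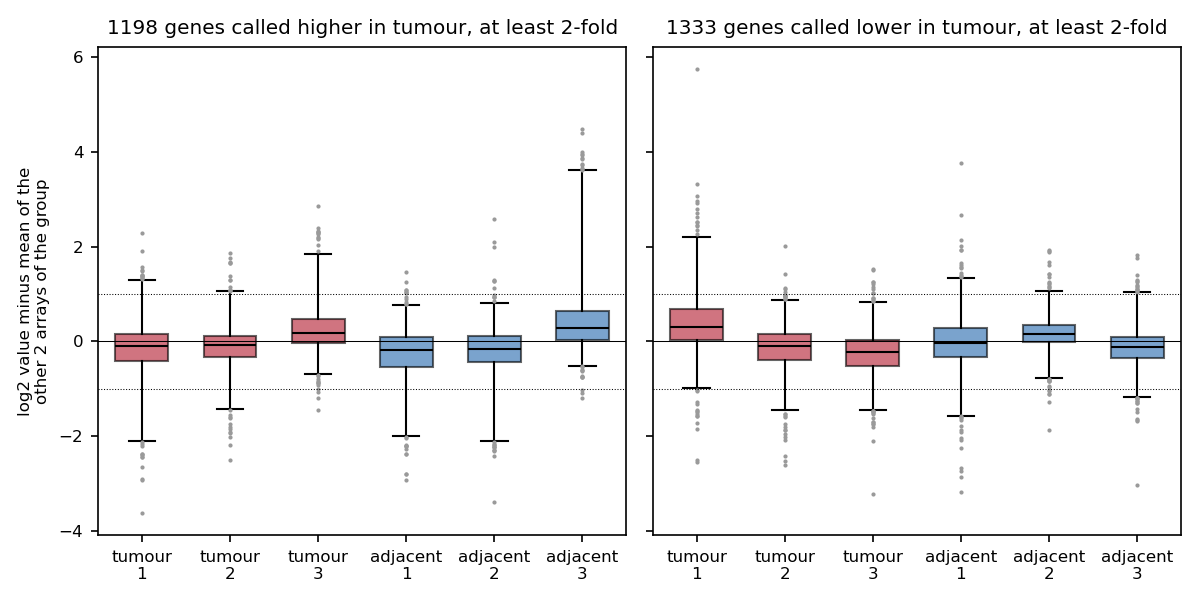
Boxes show, for each of the 6 arrays (tumours left, adjacent tissue right), its log2 value minus the mean of the other arrays of its group, over the 1198 genes called at least 2-fold higher (left panel) and the 1333 called at least 2-fold lower (right panel). Boxes span the quartiles, whiskers the 1st to 99th percentile, and the upper tails belong to adjacent 3 in the left panel (median 0.28) and to tumour 1 in the right panel (median 0.30).

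The arrays also differed in technical measures. The 3-prime minus 5-prime difference of the bacterial spike-in transcripts, which rises where labelling of long transcripts is less complete, was 5.01 ± 0.26 in tumour and 4.10 ± 0.30 in adjacent arrays (SD, n = 3 each), and 1.99 ± 0.08 in wild-type arrays. The control probe sets of endogenous transcripts differed likewise: the same difference was 4.29 to 4.94 in tumour, 3.58 to 4.39 in adjacent and 0.56 to 0.64 in wild-type arrays for Gapdh, and 4.04 to 4.46, 3.16 to 3.65 and 1.01 to 1.27 for Actb. The running numbers in the array descriptions are 13 to 15 for tumour, 10 to 12 for adjacent and 1 to 3 for wild-type arrays, so that running number and group cannot be told apart. Taking the spike-in difference as a covariate gave 2144 calls, of which 2025 were also among the 5112, in the same direction. It left 99.9% of the 5112 differences with their sign and raised their median SE to 0.30, against 0.20 without the covariate. The spike-in difference itself was 4.73 to 5.22 in tumour and 3.91 to 4.45 in adjacent arrays, so covariate and group can only partly be told apart. Averaging the arrays of each animal and tissue, which leaves 2 tumour and 2 adjacent values, gave 3286 calls. Named genes whose call was lost in either fit are given at the end of each account.
Among the tissue markers, the epithelial ones (Epcam, Cdh1, Krt8, Krt18, Krt19, Vil1 and Cdh17) averaged 13.33 to 13.50 per array in tumour and 13.56 to 13.66 in adjacent tissue, and Krt19 (-0.42), Vil1 (-0.48) and Cdh17 (-0.45) fell. The 5 smooth muscle markers all fell (median -3.68), with array means of 8.20 to 10.21 in tumour and 12.29 to 12.68 in adjacent tissue. Mean levels of the 2 B cell markers were 5.63 to 7.02 in tumour and 9.32 to 10.12 in adjacent tissue. Markers of endothelium (Pecam1, Cdh5, Kdr and Emcn), macrophages (Csf1r, C1qa, C1qb and Adgre1) and T cells (Cd3d, Cd3e and Cd3g) gave no call. Of these, C1qa was called higher with the spike-in difference as a covariate (1.33). Emcn was called lower without tumour 1 (limma adjusted p = 0.046). With animal as a block Cdh17 was not called (limma adjusted p = 0.060). Krt19 lost its call without tumour 2, tumour 3, adjacent 1 or adjacent 2 (limma adjusted p up to 0.098) and Cdh17 without tumour 1, tumour 3, adjacent 1, adjacent 2 or adjacent 3 (up to 0.18). Krt19 had no call with the spike-in difference as a covariate. The part of muscle, lymphoid tissue and nerve in the differences of other genes was not tested. Krt19 and Cdh17 had no call with the arrays of an animal averaged.
Secreted signals of embryonic patterning showed some of the widest separations. Shh, the hedgehog ligand that stomach and embryonic gut epithelium make, had 12.15, 11.90 and 11.97 in the tumour arrays, against 7.32, 6.50 and 8.92 in the adjacent arrays (log2 difference 4.43 ± 0.70 SE, limma adjusted p = 0.00044). The lowest tumour array lies about 3 units above adjacent 3, the highest adjacent one, and without adjacent 3 the difference was 5.10. The hedgehog ligand of adult colonocytes, Ihh, went the other way, with 7.81, 7.43 and 7.31 in the tumour arrays, against 8.16, 9.62 and 8.95 in the adjacent arrays (log2 difference -1.39 ± 0.36 SE, limma adjusted p = 0.012), and the groups do not overlap. Of the 13 hedgehog pathway genes measured, 2 were higher and 3 lower (median -0.43). Those called higher numbered 1 without tumour 3 and those called lower numbered 1 without tumour 2 or adjacent 1. Of the hedgehog target genes that mesenchymal cells express, Gli1 (-0.77) fell and Hhip (-1.43), an inhibitor that binds the ligands, fell with overlapping arrays. Sufu (0.57), a negative regulator of the pathway, rose. Ihh lost its call without adjacent 2 (limma adjusted p up to 0.058), Gli1 without tumour 2 or adjacent 1 (up to 0.071), Hhip without tumour 2, tumour 3 or adjacent 1 (up to 0.069) and Sufu without tumour 1, tumour 3 or adjacent 3 (up to 0.065). Shh, Ihh, Gli1, Hhip and Sufu had no call with the spike-in difference as a covariate. Ihh, Hhip and Sufu had no call with the arrays of an animal averaged.
The activin branch of TGF-beta signalling changed at the level of its ligands. Inhba, the subunit of activin A, had 8.54, 8.93 and 9.69 in the tumour arrays, against 5.63, 6.05 and 7.05 in the adjacent arrays (log2 difference 2.81 ± 0.35 SE, limma adjusted p = 6.2e-05), and Inhbb, the subunit of activin B, had 10.07, 10.11 and 10.45 in the tumour arrays, against 6.82, 7.14 and 7.73 in the adjacent arrays (log2 difference 2.98 ± 0.40 SE, limma adjusted p = 0.00012). In both cases every tumour array exceeds every adjacent array. The activin-binding antagonist Fst (2.58) and the latent TGF-beta binding proteins Ltbp2 (2.32) and Ltbp1 (1.13) rose, while Tgfbr3 (-2.12), the co-receptor betaglycan, and Acvr1b (-0.53), an activin type I receptor, fell. That makes 6 of 24 genes of the list higher and 2 lower, with a median of 0.27. The ligands Tgfb1, Tgfb2 and Tgfb3 and the receptors Tgfbr1 and Tgfbr2 were not called. Among 23 BMP genes, 5 rose and 4 fell (median -0.07). BMP genes called higher numbered 3 without adjacent 2, and TGF-beta genes called lower numbered 1 without adjacent 2. Bmp7 (2.25) was the ligand that rose, with 10.32, 10.42 and 11.16 in the tumour arrays, against 8.61, 8.05 and 8.51 in the adjacent arrays, and the decoy receptor Bambi (1.34) and the BMP target Id3 (1.31) rose with it. Chrdl1 (-3.20), a secreted BMP antagonist, and Id4 (-2.64) fell furthest. Chrdl1 had 8.21, 6.30 and 6.38 in the tumour arrays, against 10.60, 10.09 and 9.80 in the adjacent arrays, so that tumour 1 lies between the other tumours and the adjacent tissue. Chrdl1 gave -3.82 without tumour 1. Fst lost its call without tumour 3 or adjacent 2 (limma adjusted p up to 0.075) and Acvr1b without adjacent 2 (up to 0.052). Fst, Ltbp1, Tgfbr3, Acvr1b and Bambi had no call with the spike-in difference as a covariate. Fst and Acvr1b had no call with the arrays of an animal averaged.
Growth factor genes moved in both directions. Of 15 EGF family genes, Tgfa (1.02) alone rose, whereas Egf (-2.14) and the receptor-restraining Lrig3 (-2.31) and Lrig1 (-0.89) and the receptor Erbb3 (-0.66) fell. The ligands Ereg and Nrg1 were not called (0.43 and 1.30). In the FGF list the receptor Fgfr3 (-1.77) fell, with 8.43, 8.27 and 8.31 in the tumour arrays, against 9.85, 10.21 and 10.27 in the adjacent arrays. Etv5 (1.72), a transcription factor that FGF and ERK signalling induce, rose. It had 10.47, 10.56 and 10.97 in the tumour arrays, against 8.75 to 9.09 in the adjacent arrays. In the YAP and TEAD list, Tead2, a DNA-binding partner of YAP that is best known from embryonic tissue, had 10.50, 10.91 and 10.84 in the tumour arrays, against 7.20, 7.32 and 8.01 in the adjacent arrays (log2 difference 3.24 ± 0.25 SE, limma adjusted p = 1.6e-06). Ajuba (2.80), an adaptor that restrains the Hippo kinases, Tead1 (0.96) and Yap1 (0.63) also rose. The common target genes Ccn1 and Ccn2 were not called (0.69 and 0.11), and Crim1 (-1.25) fell. Of 24 Notch genes 4 rose and 4 fell (median 0.05). Notch genes called higher numbered 2 without adjacent 1. Hey1 (1.53) rose and Hey2 (-1.42) fell, both repressors that Notch induces. The E3 ligase Dtx1 (-1.93) and the ligand Dll1 (-1.03) fell. Tgfa, Erbb3, Yap1 and Hey2 had no call with the spike-in difference as a covariate. Erbb3 had no call with the arrays of an animal averaged.
Axon guidance genes, many of which also act between epithelial and endothelial cells, divided into 7 higher and 8 lower of 27. Plxnb1, the receptor of Sema4d, had 10.64, 9.90 and 10.39 in the tumour arrays, against 7.63, 6.77 and 7.85 in the adjacent arrays (log2 difference 2.89 ± 0.33 SE, limma adjusted p = 3.6e-05). Robo1 (2.40), a receptor of Slit ligands, and its ligand Slit2 (1.46) rose, and so did Sema7a (2.23), Sema3f (1.77) and Sema3e (1.65). The guidance cues Ntn1 (-1.63), Sema3d (-1.71), Sema5a (-1.84) and Sema6d (-1.20) and the dependence receptor Unc5b (-0.92) fell. Sema3e gave 2.29 without tumour 1. Slit2, Sema7a, Sema3e, Ntn1 and Unc5b had no call with the spike-in difference as a covariate. Sema3e had no call with the arrays of an animal averaged.
Some transcription factors of embryonic foregut, pancreas and neural tissue were higher in tumour tissue. Sox2, which specifies stomach and oesophagus and is normally silent in colon epithelium, had 11.64, 11.62 and 11.94 in the tumour arrays, against 5.73, 5.44 and 9.59 in the adjacent arrays (log2 difference 4.81 ± 0.79 SE, limma adjusted p = 0.00057). Adjacent 3 stands about 4 units above adjacent 1 and 2, and without it the difference was 6.15. Sox11, a factor of embryonic neural progenitors, showed the same pattern, with 11.01, 11.97 and 11.99 in the tumour arrays, against 5.52, 5.34 and 9.36 in the adjacent arrays (log2 difference 4.92 ± 0.78 SE, limma adjusted p = 0.00042), and 6.23 without adjacent 3. Onecut2, a factor of liver and pancreas development, had 10.18, 9.60 and 9.79 in the tumour arrays, against 4.08, 3.89 and 6.36 in the adjacent arrays (log2 difference 5.08 ± 0.47 SE, limma adjusted p = 6.8e-06), and 5.87 without adjacent 3. Sox17, a factor of definitive endoderm and of arterial endothelium, had 12.47, 11.13 and 11.18 in the tumour arrays, against 8.54, 7.51 and 7.98 in the adjacent arrays (log2 difference 3.58 ± 0.39 SE, limma adjusted p = 2.5e-05), and Sox21 (3.04), Sox6 (2.26), Tbx3 (3.37) and Sox4 (1.58) also rose. Across the list, 10 of 27 developmental factors rose and 3 fell, with a median of 0.34. Developmental factors called lower numbered 1 without tumour 2 or adjacent 1. Foxp2 fell furthest, with 7.13, 4.65 and 4.18 in the tumour arrays, against 10.44, 10.09 and 9.88 in the adjacent arrays (log2 difference -4.81 ± 0.67 SE, limma adjusted p = 0.00017), and tumour 1 again lies between the other tumours and the adjacent tissue. Without tumour 1 the Foxp2 difference was -5.72. Sox2, Sox11 and Sox4 had no call with the spike-in difference as a covariate.
The intestinal identity factors ran the other way. Cdx2, the homeobox factor that keeps the epithelium intestinal, had 10.37, 9.80 and 9.57 in the tumour arrays, against 12.77, 12.26 and 12.93 in the adjacent arrays (log2 difference -2.74 ± 0.29 SE, limma adjusted p = 2.3e-05), and its relative Cdx1 had 8.60, 8.61 and 8.45 in the tumour arrays, against 10.80, 10.80 and 10.65 in the adjacent arrays (log2 difference -2.20 ± 0.17 SE, limma adjusted p = 2.1e-06). All tumour arrays lie below all adjacent arrays for both. The nuclear receptors of bile acid, vitamin D and lipid metabolism fell too, with Nr5a2 (-3.42), Nr1h4 (-2.41), Vdr (-2.25) and Nr1i2 (-1.46), and so did Hnf4g (-1.71) and Hnf4a (-0.38). Creb3l3 (-2.31) and Klf4 (-2.14), a factor of differentiated surface and goblet cells, were lower as well. In all, 14 of 27 intestinal transcription factors fell (median -0.63) and 11 to 13 fell with any 1 array left out. Gata5 stood out as the main exception, with 10.88, 11.01 and 10.73 in the tumour arrays, against 6.30, 6.97 and 8.38 in the adjacent arrays (log2 difference 3.65 ± 0.38 SE, limma adjusted p = 1.9e-05), while Gata4 and Gata6 were not called. Creb3l3 had no call with the spike-in difference as a covariate. Hnf4a and Creb3l3 had no call with the arrays of an animal averaged.
Keratins of stratified and injured epithelium rose, while Krt20 (-1.04), a marker of the differentiated surface, and Krt19 (-0.42) fell. Krt23 had 11.40, 11.27 and 11.52 in the tumour arrays, against 7.18, 7.33 and 9.23 in the adjacent arrays (log2 difference 3.48 ± 0.42 SE, limma adjusted p = 4.7e-05), and Krt6a had 8.70, 8.15 and 8.33 in the tumour arrays, against 5.14, 4.51 and 5.52 in the adjacent arrays (log2 difference 3.34 ± 0.34 SE, limma adjusted p = 1.6e-05). Krt14 (2.72), Krt17 (2.47), Krt36 (2.10), Krt4 (1.66) and Krt13 (1.45) rose as well. In total 8 of 19 keratin genes rose and 2 fell, with a median of 1.05. Keratins called lower numbered 1 without tumour 2, tumour 3, adjacent 1 or adjacent 2. The squamous master gene Trp63 and its partner keratin Krt5 were not called (0.28 and -0.19). The gastrokine genes of the stomach, Gkn1 (1.78) and Gkn3 (1.15), rose. Among junction proteins, Cldn6, a claudin of embryonic epithelium, had 10.85, 11.21 and 11.87 in the tumour arrays, against 5.02, 5.30 and 8.61 in the adjacent arrays (log2 difference 5.00 ± 0.67 SE, limma adjusted p = 0.00013). Adjacent 3 is again the high one, and the difference without it was 6.15. The stomach and lung claudin Cldn18 (1.59) rose, and Cldn15 (-2.59), Cldn14 (-1.63), Cldn8 (-1.33) and Cldn7 (-1.09) fell. Krt23 gave 4.14 without adjacent 3. Krt19 lost its call without tumour 2, tumour 3, adjacent 1 or adjacent 2 (limma adjusted p up to 0.098) and Krt13 without tumour 1, tumour 2, adjacent 1 or adjacent 2 (up to 0.098). Krt19, Krt17, Krt36, Krt13, Gkn3 and Cldn7 had no call with the spike-in difference as a covariate. Krt19 and Krt13 had no call with the arrays of an animal averaged.

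**Figure D2:**
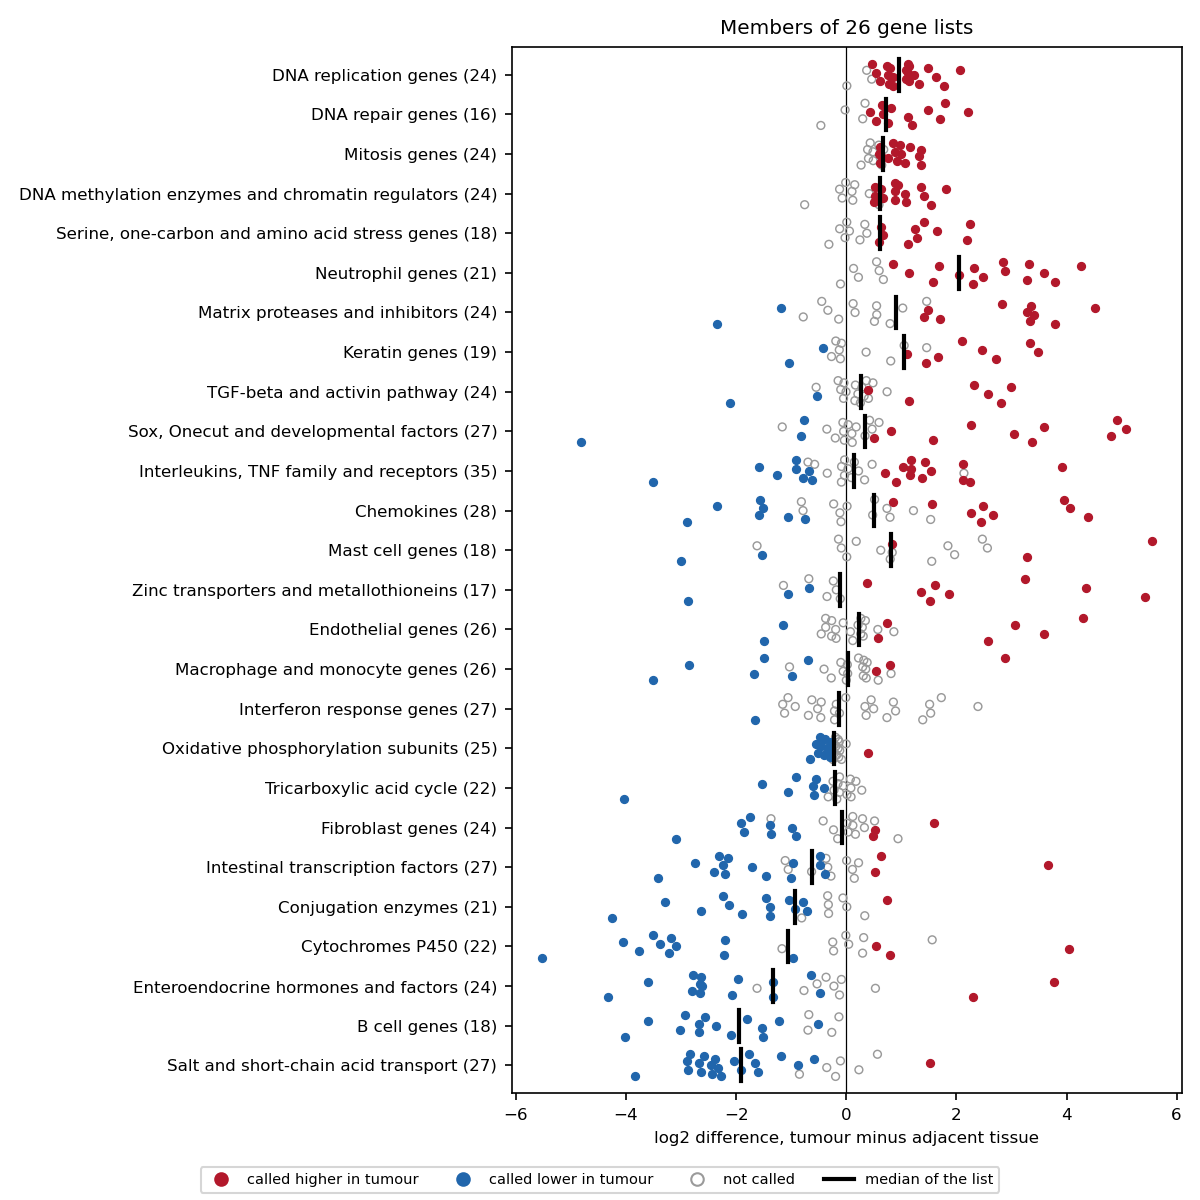
Each dot is a member of one of 26 gene lists, placed by its log2 difference between tumour and adjacent tissue, with red for called higher, blue for called lower and open grey for not called, and the number measured in parentheses. Black bars are list medians, which run from 2.05 for neutrophil genes to -1.94 for B cell genes.

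Most genes of DNA replication rose. Of 24 measured, 21 were higher and none lower, with a median of 0.96 and 18 to 20 called with any 1 array left out. Pole, the catalytic subunit of the leading-strand polymerase, had 10.57, 10.31 and 10.21 in the tumour arrays, against 8.02, 8.97 and 8.78 in the adjacent arrays (log2 difference 1.77 ± 0.29 SE, limma adjusted p = 0.00061), and Gins1 (1.62) of the replicative helicase complex rose beside it. DNA repair genes rose in 12 of 16 cases (median 0.71). Fancd2, the hub of crosslink repair, had 7.38, 7.64 and 8.21 in the tumour arrays, against 5.36, 6.37 and 4.85 in the adjacent arrays (log2 difference 2.22 ± 0.33 SE, limma adjusted p = 0.0003), and the recombination genes Brca1 (1.80), Blm (1.71), Exo1 (1.49) and Brca2 (1.20) rose as well. Of 24 mitosis genes 15 rose (median 0.66), led by Top2a (1.36), Bub1 (1.36) and Kif20a (1.32), although that count was 7 without adjacent 1 and 9 without tumour 2. With the spike-in covariate, 4 replication, 2 repair and 0 mitosis genes were called. Kif20a lost its call without adjacent 1 (limma adjusted p up to 0.064). Pole, Brca1, Blm, Exo1, Brca2, Top2a, Bub1 and Kif20a had no call with the spike-in difference as a covariate.
Cell cycle regulators showed opposite entries. Ccne1 (1.38) and Cdk4 (1.15) rose, as did 2 inhibitors, Cdkn1c, an imprinted inhibitor of cyclin kinases, with 10.25, 10.68 and 10.99 in the tumour arrays, against 8.24, 7.60 and 8.68 in the adjacent arrays (log2 difference 2.46 ± 0.30 SE, limma adjusted p = 5.6e-05), and Cdkn2a (1.31), the locus of p16 and p19. Cdkn1a (-0.56), the p53-induced inhibitor p21, and Cdkn2b (-0.62) fell. Among 24 genes of DNA methylation and chromatin, 15 rose and none fell (median 0.61). Hells, a remodeller needed for DNA methylation, had 10.45, 11.003 and 10.72 in the tumour arrays, against 8.71, 8.76 and 9.27 in the adjacent arrays (log2 difference 1.81 ± 0.23 SE, limma adjusted p = 9.0e-05), and Ezh2, the methyltransferase of Polycomb complex 2, had 11.52, 11.47 and 11.52 in the tumour arrays, against 9.73, 10.29 and 10.39 in the adjacent arrays (log2 difference 1.36 ± 0.21 SE, limma adjusted p = 0.00036). Cbx2 (1.40), Dnmt3b (1.09), Dnmt3a (0.94), Uhrf1 (0.88) and Dnmt1 (0.53) rose as well. With the covariate 3 of the 24 were called. Cdkn1a lost its call without tumour 2 (limma adjusted p up to 0.052), Cdkn2b without tumour 3, adjacent 2 or adjacent 3 (up to 0.061) and Dnmt3a without tumour 2, tumour 3, adjacent 1, adjacent 2 or adjacent 3 (up to 0.1). Ccne1, Cdkn1a, Cdkn2b, Cbx2, Dnmt3b, Dnmt3a, Uhrf1 and Dnmt1 had no call with the spike-in difference as a covariate. Cdkn1a, Cdkn2b, Dnmt3a and Dnmt1 had no call with the arrays of an animal averaged.
Parts of the biosynthetic lists rose. The serine and one-carbon list, which feeds purine and thymidylate synthesis, had 10 of 18 genes higher and none lower (median 0.61). Phgdh, the first enzyme of serine synthesis, had 13.06, 13.16 and 13.22 in the tumour arrays, against 11.38, 11.40 and 11.69 in the adjacent arrays (log2 difference 1.65 ± 0.20 SE, limma adjusted p = 4.8e-05), and the mitochondrial folate enzymes Shmt2 (1.42), Mthfd1l (1.28) and Mthfd2 (1.24) rose. Trib3 (2.24) and Chac1 (2.20), targets of the amino acid stress factor Atf4, rose, while Atf4 itself was not called (0.06). Nucleotide synthesis genes rose in 7 of 20 cases, ribosome biogenesis genes in 9 of 25 and aminoacyl-tRNA synthetase genes in 7 of 18, with medians of 0.43, 0.36 and 0.39, while cholesterol synthesis genes rose in 0 of 16 and fell in 2. With the spike-in covariate 4 serine and one-carbon, 4 nucleotide, 3 ribosome biogenesis and 2 tRNA synthetase genes were higher. In the amino acid transporter list the exchangers Slc7a8 (2.23), Slc7a11 (1.68), Slc7a6 (1.57) and Slc7a5 (1.41) rose. The apical uptake carriers Slc6a14 (-1.87) and Slc36a1 (-1.85) fell. With 1 array left out, the serine and one-carbon count lay between 6 and 9, lowest without tumour 3. Mthfd1l, Mthfd2, Slc7a11, Slc7a6, Slc7a5 and Slc36a1 had no call with the spike-in difference as a covariate. Slc7a6 and Slc7a5 had no call with the arrays of an animal averaged.
In the energy metabolism lists more genes fell than rose, and most members of each were not called. Oxidative phosphorylation subunits were lower in 11 of 25 cases and higher in 1 (in none without any array but tumour 1), and none of the falls was larger than that of Ndufa8 (-0.66). Subunits called lower numbered 6 without tumour 1, 7 without tumour 2 or adjacent 3 and 4 without adjacent 2. The median of the list was -0.22, and 1 subunit was lower with the spike-in covariate. Fatty acid oxidation genes fell in 9 of 21 cases (median -0.51), among them Ehhadh (-1.44) of the peroxisome and Bdh1 (-1.11) of ketone body metabolism. In the tricarboxylic acid cycle list 8 of 22 genes fell and none rose. Its largest fall was that of Pck1, the enzyme that commits carbon to gluconeogenesis, with 8.42, 6.68 and 6.08 in the tumour arrays, against 10.55, 11.34 and 11.36 in the adjacent arrays (log2 difference -4.03 ± 0.58 SE, limma adjusted p = 0.0002). Glycolysis genes were mixed, 3 higher and 6 lower of 19. Slc16a3, the lactate exporter, had 11.11, 10.87 and 11.02 in the tumour arrays, against 8.88, 9.13 and 9.26 in the adjacent arrays (log2 difference 1.91 ± 0.24 SE, limma adjusted p = 7.4e-05), and the glycolytic activator Pfkfb3 (1.66) rose. Hk1 (-0.61), Hk2 (-0.52) and Pfkm (-0.99) fell. Hypoxia target genes rose in 2 of 18 cases and fell in 4, and the hypoxia factor Epas1 (-1.82) fell. Pck1 gave -4.71 without tumour 1. Hk2 lost its call without tumour 1, tumour 3, adjacent 1 or adjacent 2 (limma adjusted p up to 0.11) and Pfkm without any 1 of the 6 arrays (up to 0.11). Ndufa8, Bdh1, Hk2 and Pfkm had no call with the spike-in difference as a covariate. Ndufa8, Hk2 and Pfkm had no call with the arrays of an animal averaged.
Genes that metabolise foreign compounds fell in large part. Of 21 conjugation enzymes 13 fell and 1 rose (median -0.94), and 12 to 13 fell with any 1 array left out. Sult1a1, a phenol sulfotransferase, had 9.30, 7.60 and 7.91 in the tumour arrays, against 12.52, 12.60 and 12.46 in the adjacent arrays (log2 difference -4.26 ± 0.32 SE, limma adjusted p = 1.2e-06), which is a 19.1-fold lower level with no overlap. Sult1c2 (-3.29), Sult1d1 (-2.64), Sult1b1 (-2.24), the epoxide hydrolase Ephx2 (-2.12) and the glutathione transferases Gstt1 (-1.89) and Gstm1 (-1.45) fell as well. Among 22 cytochromes P450, 11 fell and 3 rose (median -1.06). Cyp2f2 had 8.20, 6.83 and 5.76 in the tumour arrays, against 10.70, 11.16 and 11.10 in the adjacent arrays (log2 difference -4.06 ± 0.47 SE, limma adjusted p = 4.1e-05), and Cyp2d12 (-3.76), Cyp2c65 (-3.52), Cyp4f14 (-3.38) and Cyp2s1 (-3.21) fell beside it. Cyp2b10, in liver the classic target of the receptor CAR, rose furthest, beside Cyp4f39 (0.79) and Cyp3a11 (0.53), with 10.20, 9.31 and 9.07 in the tumour arrays, against 5.53, 4.95 and 5.95 in the adjacent arrays (log2 difference 4.04 ± 0.31 SE, limma adjusted p = 1.7e-06). With the spike-in covariate 11 conjugation enzymes and 10 cytochromes P450 were lower. Cyp2f2 gave -4.69 without tumour 1. Cyp4f39 lost its call without tumour 2, tumour 3 or adjacent 1 (limma adjusted p up to 0.075). Cyp4f39 had no call with the spike-in difference as a covariate. Cyp2c65 and Cyp4f39 had no call with the arrays of an animal averaged.
Nitrogen, metal and vitamin A genes each held a pair of opposite extremes. Of 15 urea cycle and arginine genes 2 rose and 2 fell (median 0.02), near the shares over all genes. Among 21 retinoid genes 2 rose and 5 fell (median -0.22). Otc, the urea cycle enzyme that makes citrulline, had 3.82, 4.61 and 3.76 in the tumour arrays, against 8.14, 8.86 and 8.95 in the adjacent arrays (log2 difference -4.59 ± 0.33 SE, limma adjusted p = 8.9e-07), and Cps1 (-2.16), the preceding enzyme, fell. Arg1, which cleaves arginine, had 9.40, 9.56 and 9.50 in the tumour arrays, against 5.47, 5.60 and 8.74 in the adjacent arrays (log2 difference 2.89 ± 0.62 SE, limma adjusted p = 0.0035), and 3.96 without adjacent 3. Slc30a2, which loads zinc into vesicles, had 12.59, 12.66 and 12.90 in the tumour arrays, against 6.88, 5.81 and 9.20 in the adjacent arrays (log2 difference 5.42 ± 0.59 SE, limma adjusted p = 2.5e-05). The groups are separated by more than 3 units, and the difference without adjacent 3 was 6.37. The metallothioneins Mt4 (4.36), Mt3 (3.24) and Mt2 (1.36) and the zinc importers Slc39a6 (1.87), Slc39a8 (1.61) and Slc39a10 (1.51) rose, and the exporters Slc30a10 (-2.88) and Slc30a1 (-1.06) fell, so that 8 of 17 zinc genes rose and 3 fell (median -0.11). In vitamin A metabolism, Rbp2, which carries retinol inside enterocytes, had 5.52, 7.11 and 6.92 in the tumour arrays, against 8.69, 11.73 and 11.002 in the adjacent arrays (log2 difference -3.96 ± 0.83 SE, limma adjusted p = 0.003), and Rdh16 (-2.41) and Aldh1a1 (-2.26) fell, while the retinol-uptake receptor Stra6 (2.74) and the retinoic acid receptor Rarb (1.27) rose. Iron genes divided evenly, with 5 higher and 5 lower of 18. The siderophore-binding Lcn2 (3.23) and the ferroxidase Cp (2.01) rose, and Heph (-1.50), the ferroxidase of enterocyte iron export, fell. Lcn2 is also a neutrophil and epithelial defence gene, adjacent 3 was the high adjacent array for it, and its difference without that array was 4.35. Mt4 gave 5.16 without adjacent 3. Cps1 lost its call without tumour 3 (limma adjusted p up to 0.055). Cps1, Arg1, Mt4, Slc30a1, Rbp2 and Lcn2 had no call with the spike-in difference as a covariate. Cps1 had no call with the arrays of an animal averaged.
Transport genes of the colon epithelium were lower. Of 27 genes for salt and short-chain acid transport, 20 fell and 1 rose, with a median of -1.92, and 18 to 20 lower with any 1 array left out. Slc26a3, the chloride-bicarbonate exchanger of surface cells, had 10.43, 9.10 and 8.69 in the tumour arrays, against 13.36, 13.08 and 13.27 in the adjacent arrays (log2 difference -3.83 ± 0.32 SE, limma adjusted p = 3.0e-06), with no overlap. The butyrate carrier Slc5a8 (-2.67), the proton-potassium pump Atp12a (-2.83), the sodium-proton exchanger Slc9a2 (-2.63), the mineralocorticoid receptor Nr3c2 (-2.59) and its guard enzyme Hsd11b2 (-2.32), the sodium channel subunit Scnn1a (-1.77) and the chloride channel Cftr (-1.60) all fell. Best2, a goblet cell bicarbonate channel, fell by 2.89 on the log2 scale. Slc9a3, the main apical sodium-proton exchanger, was the one that rose, with 12.57, 12.29 and 12.62 in the tumour arrays, against 11.24, 9.55 and 12.12 in the adjacent arrays (log2 difference 1.52 ± 0.48 SE, limma adjusted p = 0.03). Its adjacent arrays spread over more than 2 units. Of the potassium channel list, Kcnd3 (-4.76) and Trpm6 (-2.63), a magnesium channel, fell most. Kcnd3 gave -5.87 without tumour 1. Slc9a3 lost its call without tumour 1, tumour 2, tumour 3 or adjacent 2 (limma adjusted p up to 0.09). Slc9a3 had no call with the spike-in difference as a covariate.
Goblet and enteroendocrine genes were lower, and Paneth and tuft cell genes were mixed. Of 21 goblet cell genes 14 fell and none rose (median -1.14). Of 17 Paneth and antimicrobial genes 5 rose and 2 fell (median 0.45). The antimicrobial lectin Itln1 (2.46), Reg1 (0.85), Lyz1 (0.45), Mmp7 (4.52) and Lcn2 (3.23) rose, and Reg4 (-0.71) and Pigr (-0.58), the carrier of secreted antibodies, fell. Paneth list genes called higher numbered 3 without tumour 2, tumour 3 or adjacent 2, and 1 was higher with the spike-in covariate. With animal as a block Itln1 was not called (limma adjusted p = 0.052). Of 24 enteroendocrine genes 14 fell and 2 rose (median -1.32). The granule genes Chga (-2.61), Chgb (-2.66), Scg2 (-2.63) and Scg5 (-2.66) and the factors Neurod1 (-2.81) and Insm1 (-1.96) fell. Nts, which encodes neurotensin, had 10.81, 9.89 and 10.10 in the tumour arrays, against 6.34, 5.87 and 7.26 in the adjacent arrays (log2 difference 3.77 ± 0.81 SE, limma adjusted p = 0.0035), with all 3 tumour arrays above all adjacent ones. Isl1, a factor of endocrine and neural cells, had 13.03, 12.999 and 12.88 in the tumour arrays, against 10.64, 10.30 and 11.07 in the adjacent arrays (log2 difference 2.30 ± 0.33 SE, limma adjusted p = 0.00019). Tuft cells, the chemosensory cells of the epithelium, gave 3 genes higher and 4 lower of 18: Avil, an actin-bundling protein of their rootlets, had 11.90, 12.13 and 12.28 in the tumour arrays, against 8.42, 8.07 and 9.84 in the adjacent arrays (log2 difference 3.33 ± 0.41 SE, limma adjusted p = 5.9e-05), whereas Dclk1 (-2.35), Rgs13 (-2.96) and Trpm5 (-1.48), the taste-type channel, fell. Rgs13 is read highest in tumour 1, and its difference without that array was -3.77. Itln1 gave 3.22, Mmp7 5.99 and Lcn2 4.35 without adjacent 3. Itln1 lost its call without tumour 1, tumour 2, tumour 3, adjacent 1 or adjacent 2 (limma adjusted p up to 0.18), Lyz1 without tumour 2, tumour 3 or adjacent 2 (up to 0.11) and Trpm5 without tumour 2, tumour 3, adjacent 1 or adjacent 3 (up to 0.11). Itln1, Lyz1, Mmp7, Lcn2, Reg4, Scg2, Scg5, Nts and Trpm5 had no call with the spike-in difference as a covariate. Itln1, Reg1, Lyz1 and Trpm5 had no call with the arrays of an animal averaged.

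**Figure D3:**
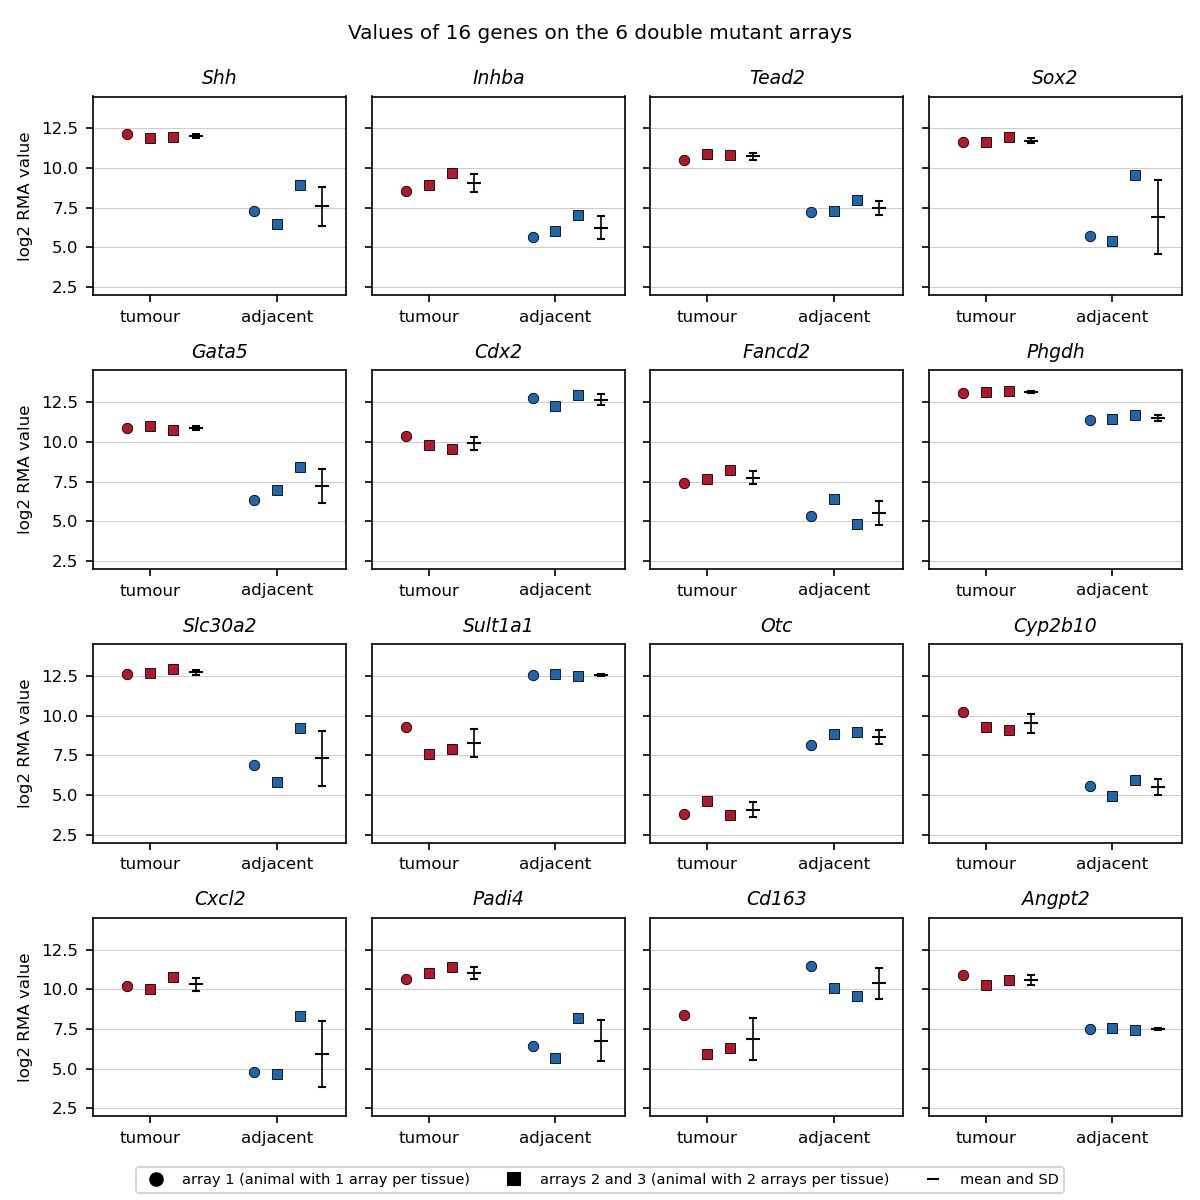
Log2 RMA intensity of 16 named genes in each array, tumours left and adjacent tissue right in every panel. Circles are the animal with 1 array per tissue, squares the animal with 2, and lines the mean with SD (n = 3); Sox2 and Cxcl2 show adjacent 3 between the groups, and Cd163 shows tumour 1 between them.

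Chemokines that attract neutrophils rose together, and those of lymphoid and homeostatic traffic fell. Of 28 chemokine genes 9 rose and 7 fell (median 0.50), and 9 to 10 rose with any 1 array left out. Cxcl2, a ligand of the neutrophil receptor Cxcr2, had 10.18, 9.99 and 10.76 in the tumour arrays, against 4.78, 4.69 and 8.30 in the adjacent arrays (log2 difference 4.39 ± 0.69 SE, limma adjusted p = 0.00042). Cxcl3, its neighbour and close relative, had 8.62, 8.49 and 9.09 in the tumour arrays, against 3.88, 3.29 and 7.16 in the adjacent arrays (log2 difference 3.96 ± 0.69 SE, limma adjusted p = 0.00083), and Cxcl5 had 9.96, 11.40 and 11.44 in the tumour arrays, against 5.57, 6.04 and 9.02 in the adjacent arrays (log2 difference 4.06 ± 0.70 SE, limma adjusted p = 0.00076). For all 3 genes adjacent 3 stands well above the other adjacent arrays, and the differences without it were 5.58, 5.15 and 5.13. Cxcl1 (2.66), Ppbp (2.48) and Cxcl15 (2.45) rose, and Pf4, which lies in the same cluster and is known from platelets, was not called (-0.23). The lower ones included Ccl28, the epithelial chemokine that draws IgA plasma cells, with 9.28, 9.60 and 9.19 in the tumour arrays, against 11.97, 12.46 and 12.33 in the adjacent arrays (log2 difference -2.90 ± 0.17 SE, limma adjusted p = 2.6e-07), and Cxcl12 (-2.35), Ccl11 (-1.56), Cx3cl1 (-1.50) and Cxcl13 (-1.59). Cxcl1 gave 3.40 without adjacent 3, and Cxcr2 gave 2.84 without tumour 1. Cxcr2, Cxcl3, Cxcl5, Cxcl1, Ccl11 and Cxcl13 had no call with the spike-in difference as a covariate. Cxcr2 and Cxcl13 had no call with the arrays of an animal averaged.
Cxcl1, Cxcl2, Cxcl3, Ppbp, Cxcl15 and Pf4 lie on chromosome 5. The promoters of 3 that rose and of Pf4, which was not called, are shown so that they can be compared. No promoter window was found for Cxcl5, which also rose, so it is left out of this comparison. The 250 bases before each gene start run 5′ to 3′ on the plus strand of GRCm38.p6, from RefSeq. They are chr5:90890995-90891244 for Cxcl1, chr5:90903649-90903898 for Cxcl2, chr5:90785851-90786100 for Cxcl3 and chr5:90772185-90772434 for Pf4. Capitals mark GGAATTT or its reverse complement, letters from the site that NF-kappaB binds, chosen after the chemokine values were seen.
Cxcl1: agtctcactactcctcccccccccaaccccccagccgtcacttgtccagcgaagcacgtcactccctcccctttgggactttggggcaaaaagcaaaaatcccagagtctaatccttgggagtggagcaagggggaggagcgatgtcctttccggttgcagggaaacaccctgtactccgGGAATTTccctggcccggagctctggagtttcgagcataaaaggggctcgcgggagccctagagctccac
Cxcl2: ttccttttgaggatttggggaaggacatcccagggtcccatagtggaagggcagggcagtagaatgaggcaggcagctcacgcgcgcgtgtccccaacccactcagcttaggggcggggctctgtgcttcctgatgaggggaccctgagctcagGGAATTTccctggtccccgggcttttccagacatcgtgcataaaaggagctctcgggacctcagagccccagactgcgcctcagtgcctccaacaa
Cxcl3: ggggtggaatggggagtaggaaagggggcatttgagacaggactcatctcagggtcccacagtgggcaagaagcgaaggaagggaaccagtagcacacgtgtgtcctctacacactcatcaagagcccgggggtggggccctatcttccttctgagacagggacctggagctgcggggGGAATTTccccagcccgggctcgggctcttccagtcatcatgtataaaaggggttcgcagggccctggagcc
Pf4: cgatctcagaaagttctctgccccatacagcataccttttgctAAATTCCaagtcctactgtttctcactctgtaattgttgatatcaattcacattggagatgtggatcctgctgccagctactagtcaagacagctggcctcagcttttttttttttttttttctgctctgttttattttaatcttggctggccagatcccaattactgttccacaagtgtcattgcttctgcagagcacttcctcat
The first capital stands 70 bases before the gene start in Cxcl1, 96 in Cxcl2 and 72 in Cxcl3, with the letters on the strand of the gene. In Pf4 they are on the other strand, and the first capital stands 207 bases before the start. The windows of Ppbp and Cxcl15, which both rose, do not hold those letters, so the match does not separate the genes that rose from the one that did not. Over 18109 promoter windows of 14452 tested genes, each from 250 bases before to 50 after the start, 3.22% hold them, over those of genes called higher 2.90% and over those of genes called lower 3.44%.
Other short motifs were searched in the same windows on both strands, and a match was counted whether or not another motif overlapped it. TTCCCGC, the letters of an E2F site, stood in 8.78% of windows of genes called higher, 5.41% of those called lower and 6.71% of all. The TCF/LEF letters CTTTGAT stood in 3.72%, 2.43% and 2.93% of the same sets. The AP-1 letters TGACTCA (4.51%, 5.29% and 4.52%), the CDX letters TTTATTG (2.59%, 2.55% and 2.88%) and the GATA letters AGATAA (7.10%, 7.92% and 8.09%) also stood in both sets. Genes with several windows count more than once, and no test was made of these shares.
Neutrophil genes had a median of 2.05, the highest of the 84 lists after the Wnt target genes (2.74), and 15 of 21 rose. Tumour and adjacent arrays did not overlap for 9 of the 21, to be read against the shares over all genes given above. Padi4, which citrullinates histones in neutrophils, had 10.64, 11.05 and 11.42 in the tumour arrays, against 6.43, 5.67 and 8.20 in the adjacent arrays (log2 difference 4.27 ± 0.47 SE, limma adjusted p = 2.8e-05), and 4.99 without adjacent 3. Mmp9, a granule protease, had 12.18, 12.46 and 12.38 in the tumour arrays, against 7.22, 8.06 and 10.39 in the adjacent arrays (log2 difference 3.79 ± 0.63 SE, limma adjusted p = 0.00062), and 4.70 without adjacent 3. Stfa2l1, a stefin of mouse neutrophils, had 8.08, 10.89 and 11.11 in the tumour arrays, against 4.58, 5.89 and 8.85 in the adjacent arrays (log2 difference 3.58 ± 0.92 SE, limma adjusted p = 0.01), and 4.79 without adjacent 3. Clec4d (2.49), Il1r2 (2.32), Fpr2 (1.69), Trem1 (1.57), S100a8 (2.85) and S100a9 (2.89) rose, while the granule genes made in bone marrow, Elane, Mpo and Camp, were not called. The per-array medians of the list were 8.08, 8.78 and 8.99 in the tumour arrays, against 5.92, 6.00 and 7.51 in the adjacent arrays, so adjacent 3 is the highest adjacent array and tumour 1 the lowest tumour. The count of higher genes was 8 without adjacent 2, 9 without adjacent 1, 9 without tumour 3, 10 without tumour 2 and 14 to 18 without either of the others, and 3 were higher with the spike-in covariate. S100a8 gave 4.06 and S100a9 4.05 without adjacent 3, and Stfa2l1 gave 4.55, Trem1 2.26, S100a8 3.59 and S100a9 3.68 without tumour 1. Clec4d lost its call without adjacent 2 (limma adjusted p up to 0.0504), Fpr2 without tumour 2, tumour 3, adjacent 1 or adjacent 2 (up to 0.16), Trem1 without tumour 2, tumour 3, adjacent 1 or adjacent 2 (up to 0.1), S100a8 without tumour 2, tumour 3, adjacent 1 or adjacent 2 (up to 0.15) and S100a9 without tumour 2, tumour 3, adjacent 1 or adjacent 2 (up to 0.16). Mmp9, Stfa2l1, Clec4d, Il1r2, Fpr2, Trem1, S100a8 and S100a9 had no call with the spike-in difference as a covariate. Fpr2, Trem1, S100a8 and S100a9 had no call with the arrays of an animal averaged.
Macrophage genes had a median of 0.02, with 3 higher and 6 lower of 26. Macrophage genes called higher numbered 1 without adjacent 2. The pan-macrophage genes Csf1r and Adgre1 gave differences of 0.03 and -0.10. Genes of resident macrophages fell: Cd163, a haemoglobin scavenger receptor, had 8.37, 5.93 and 6.28 in the tumour arrays, against 11.46, 10.06 and 9.58 in the adjacent arrays (log2 difference -3.50 ± 0.61 SE, limma adjusted p = 0.00089), and Folr2 (-2.86), Lyve1 (-1.50) and Mrc1 (-0.69) fell. Tumour 1 is the high tumour array for Cd163, and the difference without it was -4.26. Gpnmb (0.79) and Fcgr3 (0.54) rose. Muscle, which holds resident macrophages of its own, moved in the same direction as these genes, and its part was not tested. Mrc1 lost its call without tumour 2, tumour 3, adjacent 1 or adjacent 2 (limma adjusted p up to 0.099), Gpnmb without any 1 of the 6 arrays (up to 0.12) and Fcgr3 without adjacent 2 (up to 0.079). Cd163, Mrc1 and Fcgr3 had no call with the spike-in difference as a covariate. Mrc1, Gpnmb and Fcgr3 had no call with the arrays of an animal averaged.
Cytokine genes rose in 13 of 35 cases and fell in 8. Il11, a cytokine of the gp130 family, had 8.08, 7.88 and 8.08 in the tumour arrays, against 5.14, 5.46 and 6.68 in the adjacent arrays (log2 difference 2.25 ± 0.32 SE, limma adjusted p = 0.00021), and Il33 (2.12), Il6 (1.53), Lif (1.18) and Osm (1.18) rose. Il22ra2, the soluble decoy that binds interleukin 22, had 4.81, 5.32 and 5.33 in the tumour arrays, against 8.88, 8.94 and 8.20 in the adjacent arrays (log2 difference -3.52 ± 0.45 SE, limma adjusted p = 9.1e-05), and the signalling receptor subunit Il22ra1 (-1.59) fell too. Il18 (-0.79) and Tslp (-0.92), cytokines of colonic epithelium, fell. Among sensors Tlr2 (1.92) and Nlrp3 (1.54) rose and Nlrp6 (-1.79), Tlr1 (-1.55) and Tlr4 (-0.91) fell. The interferon response list of 27 genes held 1 call, Oasl1 (-1.66), with a median of -0.12, and the MHC class I list of 15 held 1, Psmb10 (-0.83). Without tumour 1, 1 interferon gene and 2 MHC class I genes were higher. Lif lost its call without any 1 of the 6 arrays (limma adjusted p up to 0.089), Tslp without tumour 2, tumour 3, adjacent 2 or adjacent 3 (up to 0.11) and Psmb10 without tumour 1 or adjacent 2 (up to 0.076). Il33, Il6, Lif, Tslp, Tlr2, Nlrp3, Tlr4, Oasl1 and Psmb10 had no call with the spike-in difference as a covariate. Lif and Tslp had no call with the arrays of an animal averaged.
Genes of the B lineage were lower, and few T cell genes were called. Of 18 B cell genes 14 fell (median -1.94), with Ms4a1, which encodes CD20, at 4.24, 6.55 and 6.91 in the tumour arrays, against 10.22, 10.11 and 9.41 in the adjacent arrays (log2 difference -4.01 ± 1.02 SE, limma adjusted p = 0.0099), and 9 of 15 plasma cell genes fell (median -1.14). Irf4 (-2.41), Mzb1 (-2.39) and Tnfrsf17 (-2.17) fell among the plasma cell genes, and so did the immunoglobulin joining chain Jchain (-0.62). With the covariate 2 B cell genes and 6 plasma cell genes were lower. T cell genes gave 2 higher and 3 lower of 25. Gzmb, the cytotoxic protease, had 8.42, 8.57 and 8.44 in the tumour arrays, against 6.04, 6.33 and 7.34 in the adjacent arrays (log2 difference 1.91 ± 0.54 SE, limma adjusted p = 0.018). T cell genes called higher numbered 5 without tumour 1, 0 without tumour 2 and 1 without tumour 3, adjacent 1 or adjacent 2, and those called lower numbered 1 without tumour 1 or adjacent 2. In the checkpoint list the ligands Vtcn1 (2.48), Cd276 (2.13) and Tnfsf9 (2.11) and the receptor Tnfrsf9 (2.39) rose, whereas Pdcd1, Ctla4 and Cd274 were not called. Ms4a1 gave -3.18 without tumour 1. Gzmb lost its call without tumour 2, adjacent 1 or adjacent 2 (limma adjusted p up to 0.071). Ms4a1, Gzmb and Tnfrsf9 had no call with the spike-in difference as a covariate. Gzmb had no call with the arrays of an animal averaged.
Mast cell and neutrophil genes held some of the genes whose difference was not the same in the 2 animals: of 10 called in the test below, Tpsab1 and Mcpt4 are in the mast cell list and Cxcr2 in the neutrophil list. The median tumour minus adjacent difference of the 21 neutrophil genes was 1.07 in the animal with 1 array per tissue and 2.28 in the animal with 2, and that of 18 mast cell genes was 2.00 and 0.15. These medians were not tested, and those of the first animal rest on tumour 1 and adjacent 1. Ms4a2, a chain of the IgE receptor, was the mast cell gene called furthest, with 11.64, 11.22 and 12.15 in the tumour arrays, against 5.53, 4.66 and 8.18 in the adjacent arrays (log2 difference 5.54 ± 0.63 SE, limma adjusted p = 3.2e-05), and 6.57 without adjacent 3. The mast cell protease Tpsab1 had 8.78, 4.93 and 4.31 in the tumour arrays, against 4.81, 4.19 and 4.37 in the adjacent arrays, and Mcpt4 had 5.95, 3.25 and 3.06 in the tumour arrays, against 3.29, 3.28 and 3.29 in the adjacent arrays. Both are high in tumour 1 and not in the other arrays. Other defining mast cell genes, Cpa3, Fcer1a, Mcpt1 and Mcpt2, were not called in the comparison of tumour with adjacent tissue. Their differences were above 0 but moved widely with 1 array left out. Cpa3 gave 1.08 to 3.40, Fcer1a 0.89 to 3.42, Mcpt1 0.67 to 2.54 and Mcpt2 1.01 to 2.64. Of those 6 fits, Cpa3 was called in 3, Fcer1a in 2, Mcpt2 in 1 and Mcpt1 in 0. In all 3 of 18 mast cell genes were called higher and 2 lower, and 6 were higher without tumour 2 or without adjacent 3. The per-array medians of the list were 8.72, 6.74 and 6.54 in the tumour arrays, against 5.99, 5.80 and 7.80 in the adjacent arrays, so tumour 1 and adjacent 3 are the high arrays of their groups. Cxcr2 gave 2.84 without tumour 1. Cxcr2 had no call with the spike-in difference as a covariate. Cxcr2 had no call with the arrays of an animal averaged.

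**Figure D4:**
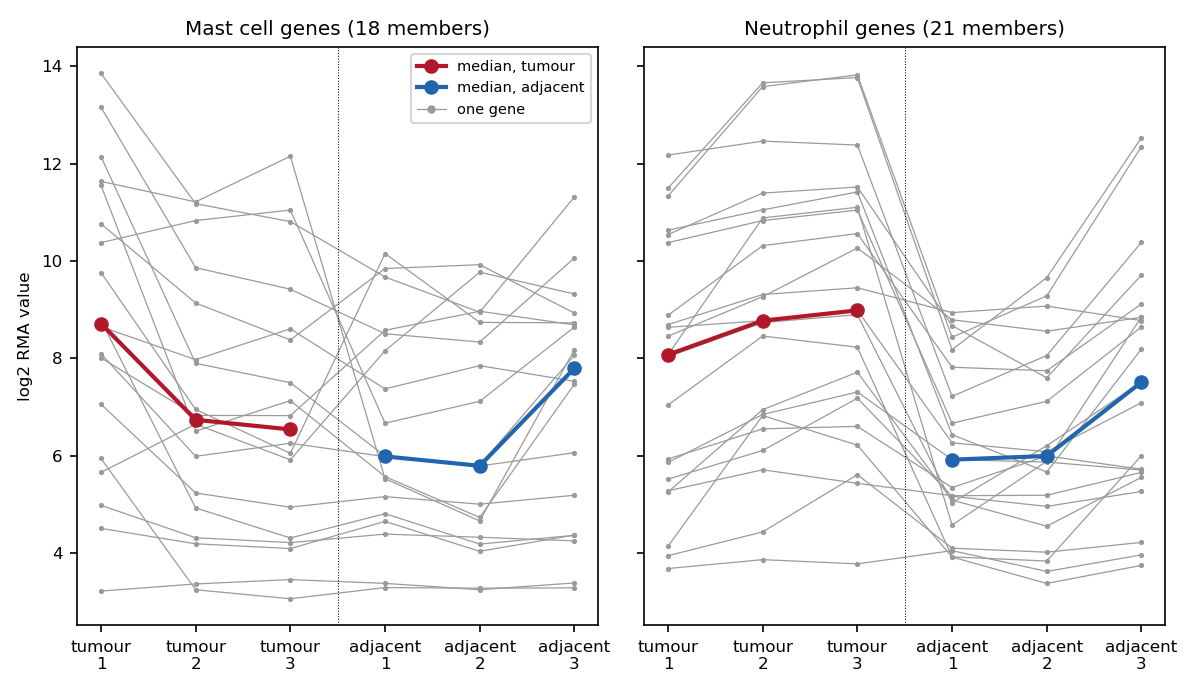
Log2 RMA intensity of 18 mast cell genes and 21 neutrophil genes in each array, tumours left and adjacent tissue right, 1 line per gene, with the list median of each array. The median of the mast cell genes is highest in tumour 1 (8.72) and that of the neutrophil genes in tumour 3 (8.99).

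A test of the difference between the animals called 10 of 18193 genes (0.055%), and 1087 at an unadjusted p under 0.05. The count was 35 without tumour 2, 29 without adjacent 2, 18 without adjacent 3 and 11 without tumour 3. In simulated data the test recovered 49% of genes set to differ by 2 log2 units between animals and 3% of those set to differ by 1. There 100 genes were changed at each size and noise was independent between arrays. Small differences would rarely be seen in that setting. In terms of signed values, 7 genes (0.0385%) had a higher difference in the animal with 1 array per tissue than in the other, and 3 genes (0.0165%) a lower one. Vip, a peptide of enteric neurons, had -2.59 in the animal with 1 array per tissue and -7.88 in the other. Tpsab1 (3.97 and 0.34), Gm3515 (2.99 and 0.33) and Cd200r3 (1.90 and 0.09) were higher in tumour in both, more so in the animal with 1 array per tissue, and Cxcr2 (0.22 and 2.96) and Gbx2 (1.48 and 3.68) more so in the other. For 4 of the 10 the signs were opposite, namely Gm26760 (3.12 and -1.33), Mcpt4 (2.65 and -0.13), Cntnap5a (1.84 and -0.79) and Stfa3 (-0.35 and 2.22). Adjacent means lay at or near the floor of the scale for Mcpt4 (3.29), Cd200r3 (3.24), Gm3515 (3.49), Cxcr2 (3.68), Gbx2 (3.75) and Stfa3 (3.92). The -0.13 of Mcpt4 is a difference among values of 3.06 to 3.29, so its sign carries little. Cxcr2, the neutrophil chemokine receptor, had 4.14, 6.83 and 6.22 in the tumour arrays, against 3.92, 3.38 and 3.75 in the adjacent arrays, and Stfa3, a neutrophil stefin, had 3.66, 5.95 and 6.24 in the tumour arrays, against 4.01, 3.72 and 4.03 in the adjacent arrays. Both lie low in tumour 1. Of the 5112 genes called in tumour against adjacent tissue, 5094 (99.6%) had the same sign in both animals. Those genes were called from the same arrays of both animals, so that share was largely set by the selection and is no separate check. Vip gave -8.04, Cxcr2 2.84, Gbx2 3.67 and Stfa3 2.17 without tumour 1. Stfa3 lost its call without tumour 2, tumour 3, adjacent 1, adjacent 2 or adjacent 3 (limma adjusted p up to 0.2). Cxcr2 and Stfa3 had no call with the spike-in difference as a covariate. Cxcr2 and Stfa3 had no call with the arrays of an animal averaged.

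**Figure D5:**
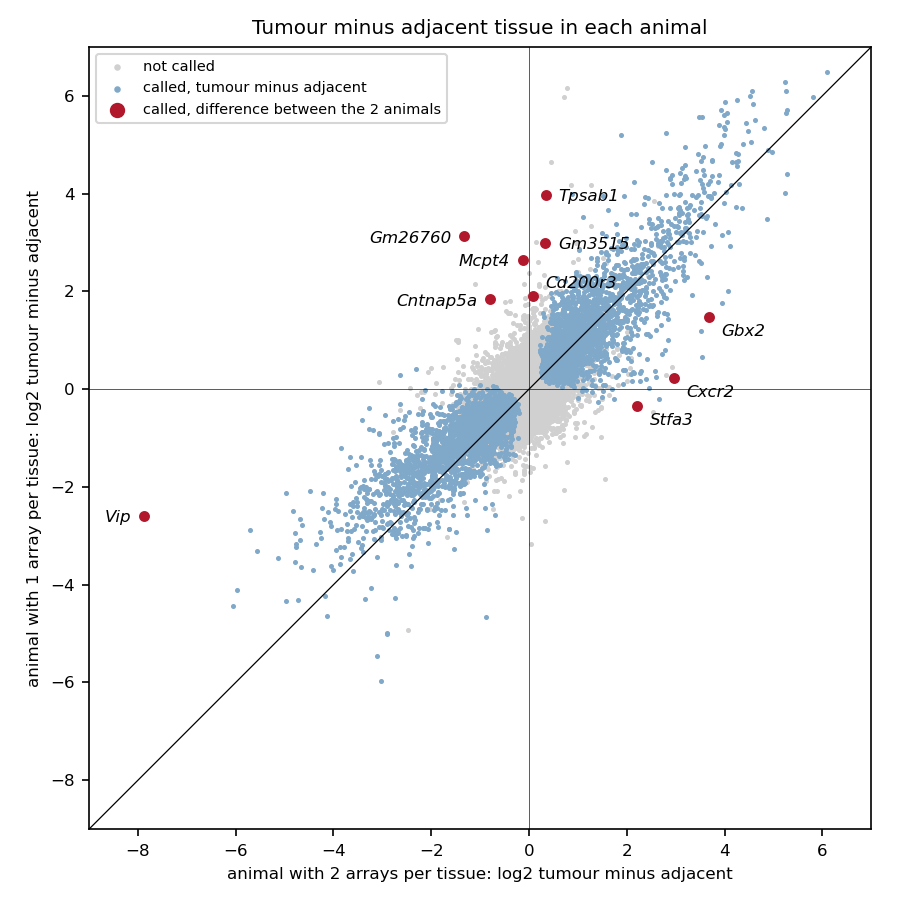
Tumour minus adjacent log2 difference of each gene in the animal with 2 arrays per tissue (x axis) and in the animal with 1 (y axis), with the line of equality. Blue points are called in tumour against adjacent tissue, and the 10 red points are called in the difference between animals, among them Tpsab1 and Mcpt4 above the line and Cxcr2 and Stfa3 below it.

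Vessel genes changed in a subset. Pecam1 and Kdr gave -0.26 and -0.27 and were not called. Angpt2, made by endothelium at sites of sprouting, had 10.90, 10.26 and 10.57 in the tumour arrays, against 7.51, 7.58 and 7.45 in the adjacent arrays (log2 difference 3.06 ± 0.20 SE, limma adjusted p = 4.8e-07), and Esm1, a marker of endothelial tip cells, had 8.69, 8.73 and 8.98 in the tumour arrays, against 5.85, 6.27 and 6.56 in the adjacent arrays (log2 difference 2.57 ± 0.28 SE, limma adjusted p = 2.5e-05). Apln (0.74) rose and the lymphatic genes Flt4 (-1.14) and Lyve1 (-1.50) fell. Prox1, a lymphatic factor that Wnt signalling also induces in colon epithelium, rose (4.29). That gave 6 of 26 endothelial genes higher and 2 lower (median 0.24). Endothelial genes called lower numbered 4 without tumour 1. Prox1 gave 5.08 without adjacent 3. Apln lost its call without tumour 2, tumour 3, adjacent 2 or adjacent 3 (limma adjusted p up to 0.1). Apln had no call with the spike-in difference as a covariate. Apln had no call with the arrays of an animal averaged.
Fibroblast and matrix genes fell and rose in parts. Of 24 fibroblast genes 8 fell and 3 rose. Mfap5, a microfibril protein, had 8.09, 5.92 and 5.84 in the tumour arrays, against 10.32, 9.77 and 9.05 in the adjacent arrays (log2 difference -3.10 ± 0.54 SE, limma adjusted p = 0.00088), with tumour 1 above the other tumours. Dpt (-1.86), Lum (-1.75), Fap (-1.91) and Postn (-1.37) fell as well, Pdgfra (0.52) and the crosslinking enzyme Lox (1.59) rose, and Col1a1 was not called (0.30). Of 28 collagen genes 7 rose, 2 fell and 19 were not called (median 0.27). Collagens called lower numbered 4 without tumour 1. The basement membrane chains Col4a6 (-2.55) and Col4a5 (-1.80), which smooth muscle makes, fell, and Col9a2 (2.12), Col12a1 (1.56), Col17a1 (1.35) and Col18a1 (1.24) rose. The matrix protease list had 10 of 24 genes higher and 2 lower (median 0.91). Those called lower numbered 1 without tumour 2, tumour 3, adjacent 1 or adjacent 2. Mmp12 (3.36), the macrophage elastase, the collagenase Mmp13 (3.34) and Mmp10 (2.83) rose beside the inhibitor Timp1 (1.71). Mmp7, matrilysin, a Wnt target in intestinal tumours, had 12.90, 13.39 and 13.27 in the tumour arrays, against 7.19, 7.20 and 11.60 in the adjacent arrays (log2 difference 4.52 ± 0.90 SE, limma adjusted p = 0.0021), and 5.99 without adjacent 3. Mmp12 gave 4.29, Mmp13 4.59 and Mmp10 3.97 without adjacent 3, and Mfap5 gave -3.83 without tumour 1. Pdgfra lost its call without tumour 1, tumour 2, adjacent 2 or adjacent 3 (limma adjusted p up to 0.19) and Mmp10 without tumour 2, tumour 3, adjacent 1 or adjacent 2 (up to 0.095). Mfap5, Lum, Postn, Pdgfra, Col17a1, Mmp12, Mmp13, Mmp10 and Mmp7 had no call with the spike-in difference as a covariate. Pdgfra had no call with the arrays of an animal averaged.
Lipid mediators and blood proteases held isolated large values. Ptgds, a prostaglandin D synthase, had 11.15, 10.48 and 11.64 in the tumour arrays, against 5.59, 5.74 and 9.30 in the adjacent arrays (log2 difference 4.22 ± 0.75 SE, limma adjusted p = 0.00094), and 5.43 without adjacent 3. Alox12, a 12-lipoxygenase, had 12.69, 12.18 and 12.04 in the tumour arrays, against 7.23, 7.12 and 8.98 in the adjacent arrays (log2 difference 4.52 ± 0.42 SE, limma adjusted p = 6.5e-06). Hpgd, which inactivates prostaglandin E2, had 10.71, 10.27 and 10.03 in the tumour arrays, against 12.67, 12.89 and 12.87 in the adjacent arrays (log2 difference -2.47 ± 0.18 SE, limma adjusted p = 9.0e-07), and the receptor Ptger3 (-3.91) and the prostacyclin synthase Ptgis (-2.51) fell. Ptgs2, the inducible cyclooxygenase, was not called (1.29, limma adjusted p = 0.11), and Ptges (0.67) rose. Plat, the tissue plasminogen activator, had 10.64, 11.11 and 11.56 in the tumour arrays, against 7.48, 8.03 and 9.44 in the adjacent arrays (log2 difference 2.79 ± 0.40 SE, limma adjusted p = 0.00018), and the complement regulator Cfi (4.45) rose. Alox12 gave 5.13 and Cfi 5.76 without adjacent 3. Ptgds, Ptgis and Cfi had no call with the spike-in difference as a covariate.
Outside the lists, the 40 genes that rose furthest without overlap included genes known from neurons and sensory cells. Otop1, a proton channel of sour taste cells, had 12.59, 12.38 and 12.59 in the tumour arrays, against 6.61, 4.40 and 8.94 in the adjacent arrays (log2 difference 5.87 ± 0.76 SE, limma adjusted p = 9.5e-05), and 7.01 without adjacent 3. Clstn2, a synaptic calsyntenin, had 11.57, 10.63 and 10.45 in the tumour arrays, against 5.28, 5.05 and 5.56 in the adjacent arrays (log2 difference 5.59 ± 0.32 SE, limma adjusted p = 2.4e-07), and Gprin2 had 10.40, 10.48 and 10.37 in the tumour arrays, against 4.74, 4.87 and 5.48 in the adjacent arrays (log2 difference 5.39 ± 0.23 SE, limma adjusted p = 3.4e-08). Synpr, a synaptic vesicle protein, had 9.07, 9.88 and 10.63 in the tumour arrays, against 5.05, 4.84 and 5.18 in the adjacent arrays (log2 difference 4.83 ± 0.32 SE, limma adjusted p = 5.2e-07). Npy2r, a receptor of peptide YY, had 8.87, 9.17 and 9.59 in the tumour arrays, against 4.20, 4.99 and 5.24 in the adjacent arrays (log2 difference 4.40 ± 0.33 SE, limma adjusted p = 1.3e-06). In both genes every tumour array lies more than 3 units above every adjacent array. Adcy8, an adenylyl cyclase that calcium stimulates, had 10.32, 10.29 and 10.17 in the tumour arrays, against 5.67, 5.27 and 6.89 in the adjacent arrays (log2 difference 4.32 ± 0.29 SE, limma adjusted p = 6.1e-07). The 40 that fell furthest included Rims1 (-5.35), a presynaptic scaffold, Bche (-4.17), butyrylcholinesterase, and Htr4 (-3.65), a serotonin receptor of enteric neurons. Abca8a (-4.30), a lipid transporter, and Pln (-4.19), a regulator of calcium uptake in muscle, were among them. Of 23 genes of enteric neurons and glia 13 fell and none rose, and the part of that tissue in these values was not tested. Rims1 gave -6.33 and Bche -4.81 without tumour 1.
A last set of values places both tissues beside wild-type colon, whose arrays stand apart in the technical measures given above. Sdr16c6, a retinol dehydrogenase relative, had 5.81, 5.50 and 5.41 in the tumour arrays, against 8.30, 9.53 and 9.21 in the adjacent arrays and 4.29 ± 0.43 in wild-type colon (SD, n = 3). It was called lower in tumour than in adjacent tissue (-3.44). For Cdx1, whose tumour and adjacent values are given above, the wild-type arrays averaged 11.95 ± 0.26. Over all genes, limma called 27.8% between adjacent and wild-type colon, and with the spike-in difference as a covariate 0 of 18193, with 606 at an unadjusted p under 0.05. The spike-in difference was 3.91 to 4.45 in adjacent and 1.89 to 2.06 in wild-type arrays. Covariate and group can therefore hardly be told apart here, and the 0 calls decide nothing about a cause. The comparison of adjacent with wild-type colon shares the adjacent arrays with the one described here.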

How the data were processed

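RNA of 15 mouse colon samples was extracted with Trizol and hybridised as biotinylated cRNA, per the labels' protocols, to Affymetrix Mouse430_2 arrays. The deposited log2 values were made by the authors with RMA and Partek 6.5, per the submitters' processing notes, in an order and with settings not given in the sources used here. Precision is limited by the number of arrays.
Of 45101 probe sets, 34945 carried 1 gene symbol in the platform annotation, 932 several, 9160 none, and 64 were controls, and 1745 of the kept probe sets can match several transcripts. Each of 18193 genes was read from 1 probe set, the one whose mean over the 15 arrays was highest. limma 3.58.1 in R 4.3.3 fitted 5 group means to the 15 arrays (lmFit and eBayes), with Benjamini-Hochberg adjustment over all genes and a threshold of 0.05. Simulated data had 100 of 18193 genes changed at each size and noise drawn independently for each array. On these the fit recovered 69% of genes changed by 1 log2 unit and 94% of those changed by 2. The deposited data gave many more calls and some of their arrays share an animal, so these rates need not hold there.
The labels' numbers tie tumour 1 and adjacent 1 to one animal and the other 4 arrays to another. Deviations from the group means correlated at 0.281, -0.0155 and 0.182 for the pairs with the same number. They correlated at 0.124 and 0.126 for the other pairs from the same animal, and at -0.259 to -0.0881 between animals. Because each group was centred on the mean of its own arrays, these correlations constrain one another and are no independent check of the animal numbers.
The text names members of 84 lists (1635 different genes), the 40 genes with the largest called difference in each direction without overlap of the arrays, the 10 genes called in the difference between animals, and the targeted genes. The members and lists were chosen with earlier results of these data known. Counts and medians describe the lists, and no test of a list was made. Alternatives were other probe set rules, only genes above the median mean, an added cyclic loess step, another prior, only the 6 arrays, a spike-in covariate, animal or replicate number as a block, arrays of an animal averaged, and each array left out.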

Additional observations from a re-analysis of the deposited data

Results flagged for a closer look

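The tumour minus adjacent difference itself differed between the 2 animals for 10 genes by limma's test of that difference, with adjusted p under 0.05, given here as the animal with 1 array per tissue minus the animal with 2. It was 5.29 on the log2 scale for Vip, a peptide of enteric neurons, 4.45 for Gm26760, 3.63 for Tpsab1, 2.78 for Mcpt4, 2.65 for Gm3515, 2.63 for Cntnap5a and 1.81 for Cd200r3. It was -2.74 for Cxcr2, -2.57 for Stfa3 and -2.20 for Gbx2. The animal with 1 array per tissue has no spread of its own, so these values rest on tumour 1 and adjacent 1. For Gm26760, Mcpt4, Cntnap5a and Stfa3 the 2 animals' own differences had opposite signs. For Mcpt4 the negative one was -0.13, among values near the floor of the scale.
Probe sets without a gene symbol entered no comparison of the report. In a fit over 45037 probe sets, 754 of these 9160 were called between tumour and adjacent tissue (8.23%), 392 higher and 362 lower.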

How the results depend on the processing

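Only genes above the median mean, a fit of fewer genes, gave 3329 calls, 1486 of them higher, and 1282 at least 2-fold apart. That choice gave 0 genes in the difference between animals. Of the 10 genes called there with all genes, only Vip (mean 10.5) lies above the cut of 8.39. Vip was thus tested and not called, and the others were not in that fit. The spike-in covariate gave 2144 calls, 1034 higher, 1110 lower and 1664 at least 2-fold apart. Averaging the arrays of an animal, which leaves fewer samples, gave 3286 calls, 1700 higher and 1586 lower. Leaving out each array gave 3914 to 4570 calls, 2039 to 2278 higher, 1875 to 2292 lower, 2256 to 2583 at least 2-fold apart, and 11 to 35 in the difference between animals.
With animal as a block, 5183 genes were called, 2629 higher and 2554 lower, and with the replicate number as a block 4915. Beside Cdh17 and Itln1, the animal block ended no call among the named genes. The difference reversed for Apc with the most variable probe set (-0.21) and for C1qa with the covariate (1.33, called higher), and the cause was not tested. Cntnap5a and Gm26760, not called between tumour and adjacent tissue with all arrays, gave -0.61 to 0.44 and -1.12 to 1.13 with 1 array left out. The lowest value of each came without tumour 1 and the highest without tumour 2. The remaining probe set, loess, prior and array choices moved the counts of called genes by less than 1.5 times.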
